A study of Mus musculus with 6 samples.

Results

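The forkhead transcription factors were examined in mouse embryos that carry an altered form of Stat3, the gene of a cytokine-activated transcription factor. Members were all genes whose symbol is Fox followed by a class letter and a number, as named through the transcript accession of each array probe. The array held 44 such genes of 20659 genes with a symbol, measured by 55 probes. Total RNA from whole embryos of day 12 was hybridised to Agilent mouse arrays, 1 embryo per array. There were 2 wild-type embryos, 2 heterozygous and 2 homozygous for the allele labelled STAT3-K177K180R, and per the labels embryos of all genotypes came from the same womb. The wild-type embryos were the controls and carry no altered allele. The allele is carried by the whole animal in the labels, which name no promoter, Cre or treatment. A label field calls the wild type a mutant and the extraction protocol names tumor tissue, so the sample titles were followed. The labels state that each genotype was tested in 2 independent experiments, without saying which embryos shared a litter, so p-values measure only the spread between these samples.

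Forkhead proteins bind DNA through a winged-helix domain, and each class acts in its own tissues during development. FOXA proteins open chromatin in endoderm, liver and floor plate, FOXC and FOXF proteins pattern mesenchyme and vessels, FOXD3 acts in neural crest, and FOXO proteins are kept out of the nucleus when AKT is active. FOXM1 drives genes of mitosis and FOXJ1 those of motile cilia. At this stage the liver, brain, limbs and vessels are all forming, so a whole embryo holds RNA from many forkhead domains at once.

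Levels below are the log2 signal of a probe minus the 75th percentile of all gene spots on that array. A level of 0 is thus the brightness of the 75th percentile, and levels of different probes cannot be compared. Of the 44 genes, 40 had a probe that stood well above background in both embryos of some genotype and were tested, each by its brightest such probe. Foxn1, a gene of thymic epithelium, Foxb2 and Foxi2 were not well above background on any array, and Foxr2 was so on 1 array of each genotype. Of the 40 tested genes, 37 were well above background on all 6 arrays. The exceptions were Foxi1, on 5 arrays, and Foxe3 and Foxo4, on none of the homozygous arrays.

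Gene probes well above background made up 70.7% to 77.3% of each array, with both homozygous arrays lowest. Both homozygous arrays were read in a second scan, in which the median signal of negative control spots was 43.5 and 48, against 26 to 27 in the first. Scan and homozygous genotype therefore cannot be told apart, while wild-type and heterozygous arrays shared a scan. In whole embryos, fewer cells of a type and less RNA per cell cannot be told apart either.

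Between homozygous and wild-type embryos, 6 of the 40 tested forkhead genes passed the test, 5 with a lower and 1 with a higher fitted value. Among those measured on every array, Foxn3 fell by 2.58 on the log2 scale, Foxp1 by 1.22 and Foxd3 by 0.72, and Foxa3 rose by 0.81. Foxe3 and Foxo4 also passed with lower values. Neither was well above background in homozygous embryos, so the size of neither difference was measured. The 6 genes are 15% of those tested, at an adjusted p below 0.05 in limma with Benjamini-Hochberg adjustment over all genes tested. Over all 24570 genes with a value in this comparison the share was 29%, with 14.3% higher and 14.7% lower. The difference between these shares was not tested. The median difference of the 40 genes was 0.04, against 0.08 over all genes, and the median size was 0.29 against 0.35. In 29 of the 40 the difference was smaller than 0.5, and 21 differences lay above 0 and 19 below. Both homozygous arrays lay beyond both wild-type arrays in 25 genes (62.5%, against 69.5% over all genes), 13 higher (32.5%, against 39.5%) and 12 lower (30%, against 30.1%). An unadjusted p below 0.05 was reached by 13 genes (32.5%, against 43.3%). With another background correction, normexp, the family counted 6 higher and 4 lower genes in place of 1 and 5. That setting moved the median of all genes from 0.08 to 0.19 and the share of higher genes among all calls from 49.3% to 67.8%. Without the first wild-type embryo 3 genes were called, Foxn3, Foxe3 and Foxp1 (7.5%, against 8.91% of all genes), and without the first homozygous embryo 11 were (27.5%, against 36.1%).

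**Figure D1:**
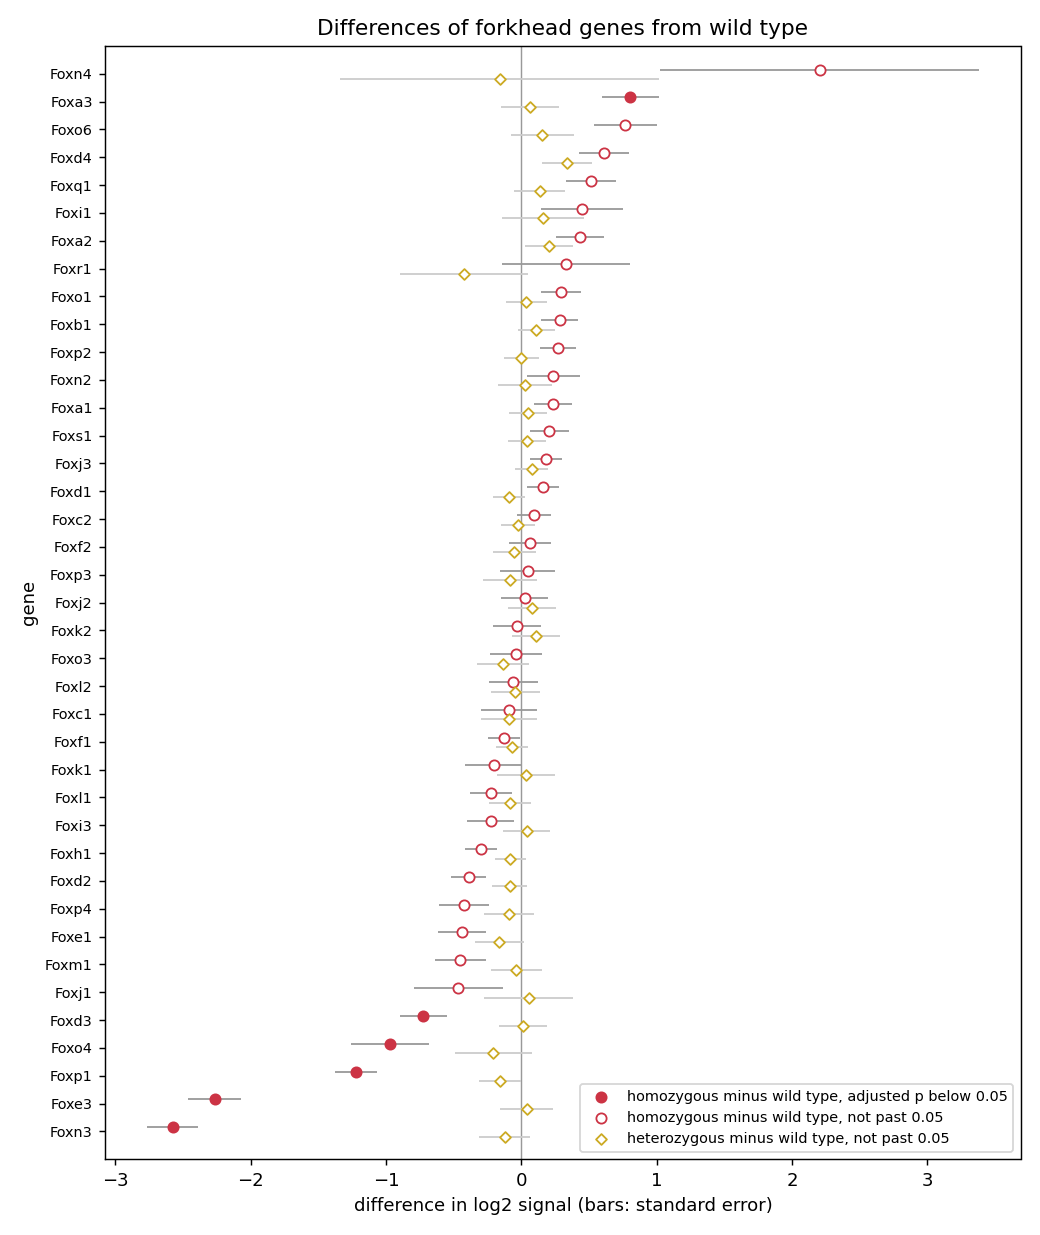
Difference of homozygous (circles, filled where called) and heterozygous (diamonds) from wild-type embryos (x axis, log2) for tested forkhead genes, with bars of 1 SE of the limma fit (n = 2 embryos per genotype). Homozygous values run from -2.58 for Foxn3 to 2.20 for Foxn4, and the wide bar of Foxn4 stands for its uncalled value.

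Foxn3, a transcriptional repressor first known as a checkpoint suppressor, gave the clearest difference of the family. The wild-type embryos had levels of 1.55 and 1.74, the heterozygous 1.58 and 1.47 and the homozygous -0.69 and -1.17. In array signal this was 3034 and 3552, then 3536 and 3490, and then 531 and 348. Both homozygous embryos lay far below the other 4, which overlapped. The difference from wild type was -2.58 ± 0.19 (SE, n = 2 per genotype; limma adjusted p = 0.000836), a 5.96-fold lower level. Against heterozygous embryos it was -2.45 ± 0.19 (adjusted p = 0.00104). The 1 probe of Foxn3 kept its call in all 13 other settings run for the wild-type comparison, with values from -2.82 to -2.33.

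Bases upstream of annotated starts were read for the forkhead genes because the altered protein is itself a DNA-binding factor. RefSeq (GRCm38.p6) gave 33 starts for 28 of the 44 genes. The STAT-type motif TTCNNNGAA, which reads the same on both strands, lay in the 250 bases upstream of 2 of these 33 starts (6.06%), against 7.01% of all 32817 starts. The forkhead motif TGTTTAC, searched on both strands, lay upstream of 1 of the 33 (3.03%), against 3.16% of all. These 2 motifs do not overlap in any sequence shown. The STAT-type matches were upstream of Foxn3 and of Foxp3, and the forkhead match upstream of Foxa1. Such matches describe letters and do not show binding. The 250 bases upstream of the Foxn3 start, at chr12:99450075-99450324 on the minus strand, are printed 5′ to 3′ with the STAT-type match in capitals, since Foxn3 had the largest measured fall. This start lies inside the gene and the match begins 147 bases upstream of it. For comparison, the same window follows for Foxa3 (chr7:19023540-19023789, minus strand), the gene that rose, which holds neither motif, and for Foxa1 (chr12:57546112-57546361, minus strand), with the forkhead match in capitals on the opposite strand.
Foxn3: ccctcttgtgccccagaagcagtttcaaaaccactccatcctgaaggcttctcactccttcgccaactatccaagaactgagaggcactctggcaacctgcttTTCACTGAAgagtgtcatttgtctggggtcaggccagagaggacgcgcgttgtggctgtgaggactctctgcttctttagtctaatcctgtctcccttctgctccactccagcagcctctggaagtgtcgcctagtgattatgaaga
Foxa3: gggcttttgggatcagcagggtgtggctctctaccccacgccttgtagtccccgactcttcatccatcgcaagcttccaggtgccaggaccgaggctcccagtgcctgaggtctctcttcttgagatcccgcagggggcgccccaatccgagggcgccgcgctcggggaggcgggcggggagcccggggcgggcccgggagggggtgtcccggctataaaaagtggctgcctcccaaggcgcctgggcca
Foxa1: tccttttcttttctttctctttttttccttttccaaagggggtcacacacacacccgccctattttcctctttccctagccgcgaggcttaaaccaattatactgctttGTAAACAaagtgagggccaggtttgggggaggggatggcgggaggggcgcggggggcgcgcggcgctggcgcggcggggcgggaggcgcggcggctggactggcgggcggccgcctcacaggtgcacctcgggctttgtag
The Foxa3 window is the richest in G and C, at 68.8%, followed by Foxa1 at 62% and Foxn3 at 52.4%.

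The FOXP class comprises transcriptional repressors that act in heart, lung, brain and lymphoid development. Foxp1, which acts in heart, motor neurons and B cells, measured 1.91 and 1.97 in wild-type, 1.92 and 1.64 in heterozygous and 0.83 and 0.61 in homozygous embryos by its brightest probe. Both homozygous embryos lay below all others. The fall was -1.22 ± 0.16 against wild type (limma adjusted p = 0.00366), 2.33-fold, and -1.06 ± 0.16 against heterozygous (adjusted p = 0.00675).

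The other probes of Foxp1 did not show this fall. The second measured -1.04 and -1.11, then -1.01 and -1.30, and then -1.11 and -1.02, a difference of 0.01 ± 0.15 from wild type (limma adjusted p = 0.969 over every kept probe). The third measured -6.12 and -5.84, then -6.10 and -6.25, and then -5.57 and -5.90, a difference of 0.24 ± 0.17 (adjusted p = 0.327). Homozygous embryos overlapped wild type on both of these probes. The third probe was dim, with signals of 13.1 to 18.6, though well above background on all 6 arrays. It was named through another transcript of the gene than the other probes. The call on Foxp1 thus belonged to 1 of its 3 probes.

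Foxp2, a transcriptional repressor that acts in brain and lung development, showed the reverse arrangement. Its brightest probe read -1.41 and -1.54 in wild type, -1.40 and -1.55 in heterozygous and -1.18 and -1.23 in homozygous embryos, a difference of 0.27 ± 0.13 (limma adjusted p = 0.16). Its second probe read -1.86 and -2.03, then -2.08 and -2.05, and then -3.09 and -2.98. There both homozygous embryos lay below the other 4, and the difference was -1.09 ± 0.13 (adjusted p = 0.00319 over every kept probe) from wild type and -0.97 from heterozygous (adjusted p = 0.00546). Foxp4 differed by -0.42 ± 0.18 (adjusted p = 0.133) on its brightest probe, where wild-type embryos read 3.15 and 3.10 and homozygous embryos 2.87 and 2.54. Its other probes differed by -0.69 ± 0.21 (adjusted p = 0.0513) and 0.08. Foxp3, the factor of regulatory T cells, differed by 0.05.

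**Figure D2:**
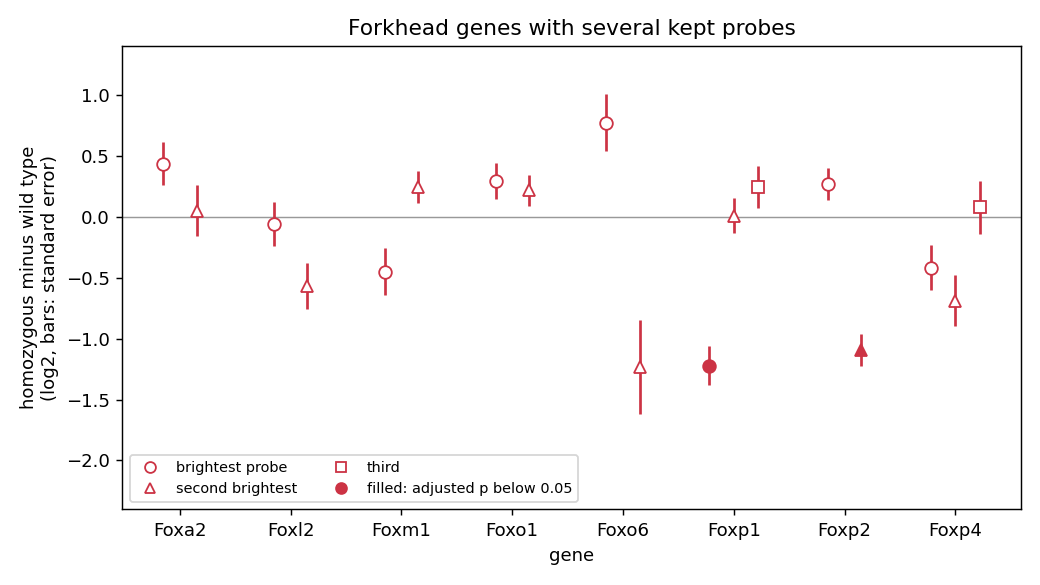
Difference of homozygous from wild-type embryos (y axis, log2, bars of 1 SE, n = 2 per genotype) for every kept probe of the 8 forkhead genes (x axis) with more than 1 such probe, filled where called. Probes of Foxp1 run from -1.22 to 0.24 and those of Foxp2 from -1.09 to 0.27, so probes of one gene stand on both sides of 0.

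Across the 8 genes with several kept probes, 3 had differences of 1 sign on all probes and 5 had both signs. In Foxp1, Foxm1, Foxp4 and Foxo6 a dim probe lay on the other side of 0 from the brightest. These dim probes had wild-type means of -5.98, -5.15, -4.62 and -6.25, and none was called. That of Foxo6 was not well above background in homozygous embryos. Foxp1 and Foxp2 were the 2 of the 8 with a called probe, and in none were all probes called. Over every kept probe, 7 of 50 were called, 1 higher and 6 lower (14%, against 27.8% of all kept probes). Between wild-type and heterozygous embryos the widest spread among the probes of 1 gene was 0.55. The remaining 32 tested genes were each measured by 1 kept probe. Probe positions along the transcripts were not used here.

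Among forkhead genes of the nervous system, neural crest and lens, 2 of 6 tested genes passed with lower values, Foxd3 and Foxe3, and 0 with higher. Over all genes 14.7% were called lower and 14.3% higher. Of the 2, Foxe3 was not well above background in homozygous embryos. Foxd3, which keeps neural crest cells as progenitors, measured -1.10 and -1.07 in wild-type, -0.95 and -1.19 in heterozygous and -1.61 and -2.01 in homozygous embryos. The homozygous pair lay below the other 4. The difference was -0.72 ± 0.17 from wild type (limma adjusted p = 0.0268), 1.65-fold, and -0.74 ± 0.17 from heterozygous (adjusted p = 0.0291). Leaving out the first or the second wild-type embryo ended the call (adjusted p = 0.126 and 0.141, with differences of -0.74 and -0.71), as did leaving out the second homozygous embryo (-0.53, adjusted p = 0.0505) or applying no filter on dim probes (adjusted p = 0.0537).

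Foxe3, a factor of the lens epithelium, lies beside Foxd2 in the genome with no protein-coding gene between them. Foxe3 measured -5.99 and -5.58 in wild-type, -5.57 and -5.92 in heterozygous and -7.99 and -8.11 in homozygous embryos. Neither homozygous array was well above background, so the size of the fall was not measured. The fitted difference was -2.26 ± 0.20 from wild type (limma adjusted p = 0.00123) and -2.31 from heterozygous embryos (adjusted p = 0.0013). The lowest signal among well-measured probes of those arrays lay 1.27-fold below the wild-type mean of Foxe3 and 1.31-fold below the heterozygous mean. That is no firm bound. Foxi1 was not well above background at -5.66 on the second homozygous array, above the Foxe3 wild-type mean of -5.78. With normexp background correction the difference from wild type was 0.04 (adjusted p = 0.779), and with normexp and quantile normalization it was -0.32 (adjusted p = 0.0366). The neighbouring gene Foxd2, a factor of facial and kidney mesenchyme, differed by -0.39 ± 0.13 (adjusted p = 0.0645).

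Foxn4, which specifies retinal and spinal interneurons, had the largest difference without a call. It measured -4.01 and -3.30 in wild-type, -3.42 and -4.20 in heterozygous, and -3.47 and 0.56 in homozygous embryos. Only the second homozygous embryo was high, with a signal of 1160 against 64.4 to 111 on the other 5 arrays. The pair differed by 4.03, a gap that 0.0570% of all tested genes reached between the homozygous embryos. The mean difference from wild type was 2.20 ± 1.18 (limma adjusted p = 0.199). Without the second homozygous embryo it was 0.19 (adjusted p = 0.737), and without the first 4.22 (adjusted p = 0.001), so 1 embryo carried it.

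Foxd4, a gene of early neural ectoderm, read -5.36 and -5.73 in the wild-type pair, against -5.08 and -4.79 in the homozygous pair (0.61 ± 0.18, limma adjusted p = 0.0508). Foxb1, of the diencephalon and hindbrain, differed by 0.28 (adjusted p = 0.16).

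**Figure D3:**
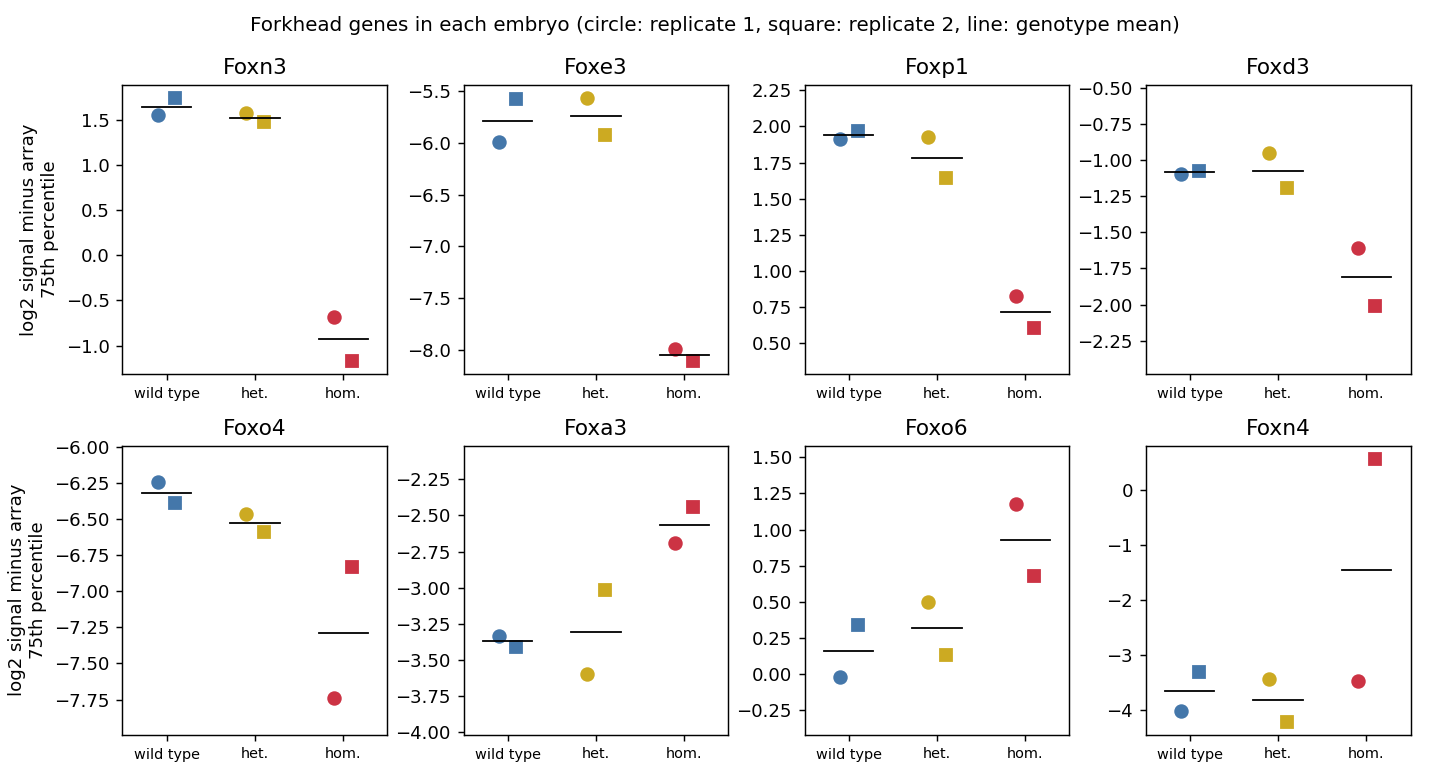
Level in each of the 6 embryos (y axis, log2 signal minus the 75th percentile of the array), by genotype (x axis), for selected forkhead genes, with a point per embryo and a line at each mean of 2. Foxn3 falls to -0.69 and -1.17 in the homozygous embryos, whereas Foxn4 is high in 1 homozygous embryo only, at 0.56.

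The FOXA genes specify endoderm, liver and floor plate, and 1 of the 3 rose, against 14.3% of all genes. Foxa3, the member most tied to liver and gut, measured -3.33 and -3.41 in wild-type, -3.59 and -3.02 in heterozygous and -2.69 and -2.44 in homozygous embryos. Both homozygous embryos lay above the other 4. The rise was 0.81 ± 0.21 against wild type (limma adjusted p = 0.0347), 1.75-fold, and the difference from heterozygous embryos was 0.74 ± 0.21 (adjusted p = 0.0502). The call against wild type was lost without the first or second wild-type embryo (adjusted p = 0.133 and 0.166) and without the second homozygous embryo (adjusted p = 0.0806), with differences from 0.68 to 0.84, and with no filter on dim probes (adjusted p = 0.0662). Foxa2, needed for the floor plate and foregut, differed by 0.44 ± 0.18 (adjusted p = 0.11) on its brightest probe, with homozygous values of -0.40 and -0.86 against -1.09 and -1.05, and by 0.05 on its second. Foxa1 differed by 0.23 ± 0.14 (adjusted p = 0.242).

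Liver genes were counted beside Foxa3. Of 5 fetal hepatocyte markers (Alb, Afp, Ttr, Apoa1 and Apoa2), 2 rose against wild type and 0 fell (40% called, against 29% of all genes). Ttr was lower, at 2.17 and 1.88 in homozygous against 2.37 and 2.20 in wild-type embryos, without passing the test (-0.26, limma adjusted p = 0.313). The mean level of the 5 markers, relative to the wild-type mean, was 0.08 and -0.08 in wild-type, -0.16 and 0.17 in heterozygous and 0.44 and 0.42 in homozygous embryos, and all 5 were well above background on every array. Of 14 tested liver genes that FOXA proteins act on or with, 6 rose and 0 fell (42.9%, against 29%), with a median of 0.50 against 0.08 over all genes. All 5 hepatocyte markers are also in this list, so the 2 that rose, Apoa2 and Afp, are counted in both. The 6 included Apoa2, an apolipoprotein (0.80 ± 0.15, limma adjusted p = 0.0124), the bile acid receptor gene Nr1h4 (0.93 ± 0.18, adjusted p = 0.0146) and Afp, alpha-fetoprotein (0.62 ± 0.13, adjusted p = 0.0155). The part of liver content in the Foxa3 value was not tested. Of 10 tested floor plate genes that act with Foxa2, 2 rose and 1 fell (30%), with a median of 0.08. The guidance gene Ntn1 rose by 0.67 (adjusted p = 0.011) and Nkx6-1 by 0.88 (adjusted p = 0.0245), and Slit2 fell by 0.67 (adjusted p = 0.0326).

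The FOXO genes answer to insulin and growth factors through AKT. Of 4, only Foxo4 passed the test, against 29% of all genes, on values that were not well above background in homozygous embryos. Foxo4 measured -6.25 and -6.39 in wild-type, -6.47 and -6.59 in heterozygous and -7.74 and -6.84 in homozygous embryos, with no homozygous array well above background. The fitted difference was -0.97 ± 0.29 (limma adjusted p = 0.0474). The lowest signal among well-measured probes of the homozygous arrays lies above the wild-type mean, so no fold can be given. Against heterozygous embryos the fitted difference was -0.76 ± 0.29 (adjusted p = 0.0989). The value against wild type moved to -0.52 without the first homozygous embryo and to -1.42 without the second. Under normexp the value was 0.21 without a call (adjusted p = 0.179), and the call was lost in 8 more of the 12 settings run.

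Foxo6, expressed chiefly in the nervous system, measured -0.02 and 0.34 in wild-type, 0.50 and 0.13 in heterozygous and 1.18 and 0.68 in homozygous embryos. The homozygous pair lay above the rest, with a difference of 0.77 ± 0.23 that missed the threshold (limma adjusted p = 0.0517). Its second probe differed by -1.23 ± 0.39 (adjusted p = 0.0581) and was not well above background on either homozygous array. Foxo1, the main FOXO of vessels and metabolism, differed by 0.29 (adjusted p = 0.181), and Foxo3 by -0.04 (adjusted p = 0.902).

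Genes on both sides of FOXO were given as lists. Of 22 genes of the PI3K-AKT pathway upstream of FOXO, 3 rose and 0 fell against wild type, with a median of 0.17. The share called was 13.6%, against 29% of all genes called in either direction and 14.3% called higher. Akt1 rose by 0.87 (limma adjusted p = 0.018), and the genes of the 14-3-3 proteins that hold FOXO in the cytoplasm, Ywhag and Ywhab, rose by 0.71 (adjusted p = 0.0148) and 0.58 (adjusted p = 0.0447). Of 24 tested FOXO target genes, 4 rose and 3 fell (29.2%, against 29% of all genes), with a median of 0.09. Cat, the catalase gene, fell by 1.37 ± 0.16 (adjusted p = 0.00266) and Gadd45a, a growth arrest gene, by 1.57 ± 0.24 (adjusted p = 0.00654), while Fbxo32, a ubiquitin ligase of muscle wasting, rose by 0.68 ± 0.13 (adjusted p = 0.0119). The called targets thus stood on both sides of 0.

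The forkhead genes of mesenchyme, vessels and kidney made up 9 of the 40, and none was called, against 29% of all genes. Their differences from wild type ran from -0.39 for Foxd2 to 0.51 ± 0.19 for Foxq1 (limma adjusted p = 0.0844). Foxc1 and Foxc2, which act in somites, vessels and the eye, differed by -0.09 and 0.09. Foxf1 and Foxf2, of gut and lung mesenchyme and the palate, differed by -0.13 and 0.06. Foxl1, of gut mesenchyme, differed by -0.22, Foxd1, of kidney stroma, by 0.16, and Foxs1, a gene of pericytes, by 0.21. Several of these are neighbours: Foxq1, Foxf2 and Foxc1 lie in a row with no protein-coding gene between them, Foxc2 and Foxl1 likewise, and 1 gene separates Foxf1 from Foxc2. Of 19 tested genes that work with FOXC and FOXF, 4 rose and 1 fell (26.3%, against 29% of all genes), with a median of 0.35. Among them the smooth muscle gene Tagln rose by 0.55 (adjusted p = 0.0216) and the lymphatic gene Prox1 by 0.67 (adjusted p = 0.0261). The hedgehog receptor gene Ptch1 fell by 0.59 (adjusted p = 0.0296). Prox1 is also counted as a riser among the liver genes that FOXA proteins act on or with.

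Of the 7 genes grouped as cell-cycle or broadly expressed, Foxn3 was called and 6 were not, where 29% of all genes were called. Foxm1, the driver of mitotic genes, measured -0.16 and -0.06 in wild-type, -0.11 and -0.19 in heterozygous and -0.31 and -0.82 in homozygous embryos (-0.45 ± 0.19, limma adjusted p = 0.118). The homozygous embryos lay below the others but differed between themselves by more than the others did. Its second probe differed by 0.24 (adjusted p = 0.211). Of 22 tested FOXM1 target genes, 4 rose and 2 fell (27.3%, against 29% of all genes), with a median of 0.10. Cdc20, an activator of the anaphase-promoting complex, rose by 1.07 ± 0.13 (adjusted p = 0.00298) and cyclin B2, Ccnb2, by 0.92 ± 0.14 (adjusted p = 0.0057), while the kinase gene Aurkb fell by 1.84 ± 0.37 (adjusted p = 0.0149). Foxk1 and Foxk2 differed by -0.20 and -0.03, Foxj2 and Foxj3 by 0.02 and 0.18, and Foxn2 by 0.24.

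Of 7 tested genes of cilia, epithelia, gonad and the early embryo, none was called (against 29% of all genes), with differences from -0.47 to 0.45. Foxj1, the master gene of motile cilia, measured -1.65 and -1.46 in wild-type, -1.40 and -1.60 in heterozygous and -1.50 and -2.55 in homozygous embryos, so only the second homozygous embryo was low (-0.47 ± 0.33, limma adjusted p = 0.313). Of 19 tested motile cilia genes under FOXJ1, 3 rose and 3 fell (31.6%, against 29% of all genes), with a median of 0.13. The dynein gene Dnah11 rose by 1.03 (adjusted p = 0.00381), and Tekt2 and Rsph4a fell by 1.05 (adjusted p = 0.00451) and 1.42 (adjusted p = 0.0163). Foxr1 was highest in the second homozygous embryo, at -4.37 against -5.99 to -5.41 elsewhere (0.33 ± 0.47, adjusted p = 0.625). Foxh1, the DNA-binding partner of SMAD proteins in Nodal signalling, measured -3.48 and -3.51 in wild-type, -3.56 and -3.60 in heterozygous and -3.79 and -3.80 in homozygous embryos (-0.30 ± 0.12, adjusted p = 0.104). Of 12 genes of the Nodal pathway, 1 rose and 1 fell (16.7%, against 29% of all genes), with a median of -0.08. They were Lefty2, a Nodal inhibitor (1.06 ± 0.16, adjusted p = 0.00686), and the receptor gene Acvr2a (-0.50, adjusted p = 0.0277). Foxe1, of the thyroid, differed by -0.44, Foxi1, of the inner ear, by 0.45, Foxi3 by -0.23 and Foxl2, of the ovary and eyelid, by -0.06.

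Of 12 neural crest genes counted beside Foxd3, 1 rose and 0 fell (8.33%, against 29% of all genes), with a median of 0.13, and the riser was Mitf, the melanocyte factor (0.46, limma adjusted p = 0.0326). In each list of related genes given here, 0 genes were called between heterozygous and wild-type embryos.

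Markers of other cell types were counted in the homozygous against wild type comparison. Over all genes 29% were called. Of 5 neutrophil markers (S100a8, S100a9, Ngp, Camp and Ltf), 4 rose (80%). The means of the 5 relative to wild type were 1.31 and 0.71 in the homozygous and 0.10 and 0.59 in the heterozygous embryos. Of 4 skeletal muscle markers 2 rose (50%), and of 5 erythroid markers 0 were called (0%). Of 6 trophoblast and decidua markers, 2 were tested, of which Prl3d1 rose by 0.77 and Gcm1 fell by 2.21 (100% of the 2). Their part in the forkhead values was not tested.

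**Figure D4:**
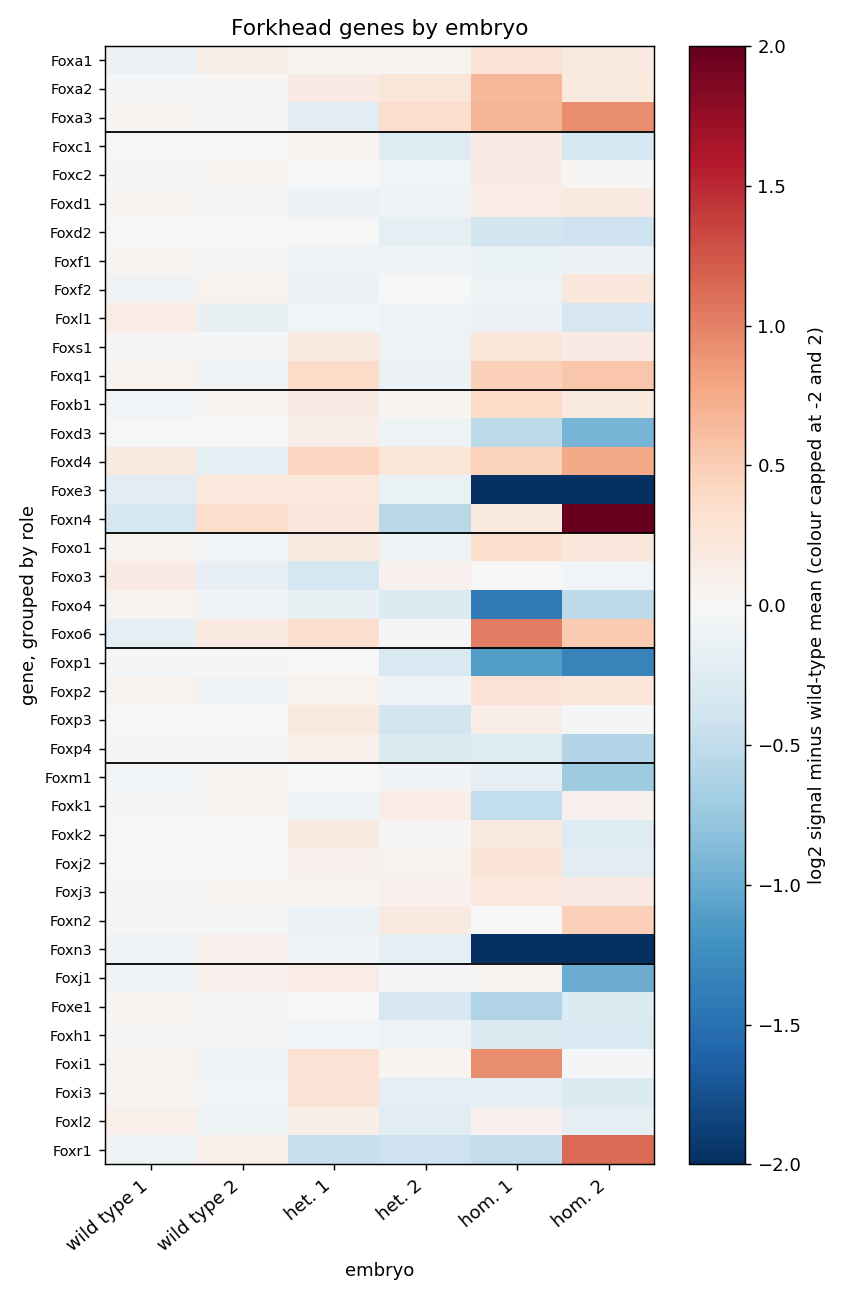
Level of tested forkhead genes in each of the 6 embryos, as the log2 difference from the wild-type mean of that gene (colour scale, capped at -2 and 2), with genes grouped by role. Foxn3 and Foxe3 are low in both homozygous embryos, and Foxn4 stands out in the second homozygous embryo only.

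Heterozygous embryos were compared with wild type within the first scan, and 0 of the 40 genes were called by limma. The share over all genes was also 0%, and 0 of the 40 passed an unadjusted p below 0.05, against 2.26% of all genes. Differences ran from -0.42 for Foxr1 to 0.34 for Foxd4, with a median of 0.01 against 0.00 over all genes. The 6 genes called in homozygous embryos differed here by -0.21 (Foxo4) to 0.07 (Foxa3), with -0.12 for Foxn3 and 0.01 for Foxd3. Arrays of the genotypes did not overlap in 10 of the 40 genes (25%, against 27% over all genes), 5 higher (12.5%, against 14.8%) and 5 lower (12.5%, against 12.2%).

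Homozygous embryos were also set against heterozygous embryos, which share the homozygous arrays with the first comparison. Of the 40 genes, 4 were called, Foxn3, Foxe3, Foxp1 and Foxd3, all lower. That is 10%, against 24% over all genes (10.7% higher and 13.3% lower). Arrays did not overlap in 23 genes (57.5%, against 64.1%), 12 higher (30%, against 35.9%) and 11 lower (27.5%, against 28.2%), and 7 genes reached an unadjusted p below 0.05 (17.5%, against 40.3%). Of the 50 kept probes 5 were called, all lower (10%, against 22.8%). The median difference was 0.10 in the family and 0.07 over all genes. Under normexp the family gave 9 higher and 4 lower genes, while the median of all genes moved to 0.24 and the share of higher calls from 44.5% to 75.9%. Without the first homozygous embryo 9 genes were called (22.5%, against 31.9% of all genes). Foxd3 lost its call in 7 of 13 other settings, with adjusted p up to 0.150 in limma, and Foxa3, at 0.0502 here, gained a call as higher in 7 of 13.

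Embryos of 1 genotype differed from each other most in the homozygous group. The median gap between the 2 embryos over the 40 genes was 0.10 in wild type, 0.20 in heterozygous and 0.27 in homozygous, against 0.11, 0.17 and 0.25 over all genes. Gaps above 0.5 were found in 2, 3 and 9 of the 40 genes. The 9 in homozygous embryos are 22.5%, against 18.8% of all genes.

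The 4 genes Foxn3, Foxp1, Foxd3 and Foxa3 were called in the same direction against wild type under each of the 4 scalings of the arrays. Foxe3 and Foxo4, neither of them well above background on the homozygous arrays, were not. Under normexp Foxn3 differed by -2.45, Foxp1 by -1.28, Foxd3 by -0.64 and Foxa3 by 0.69.

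**Figure D5:**
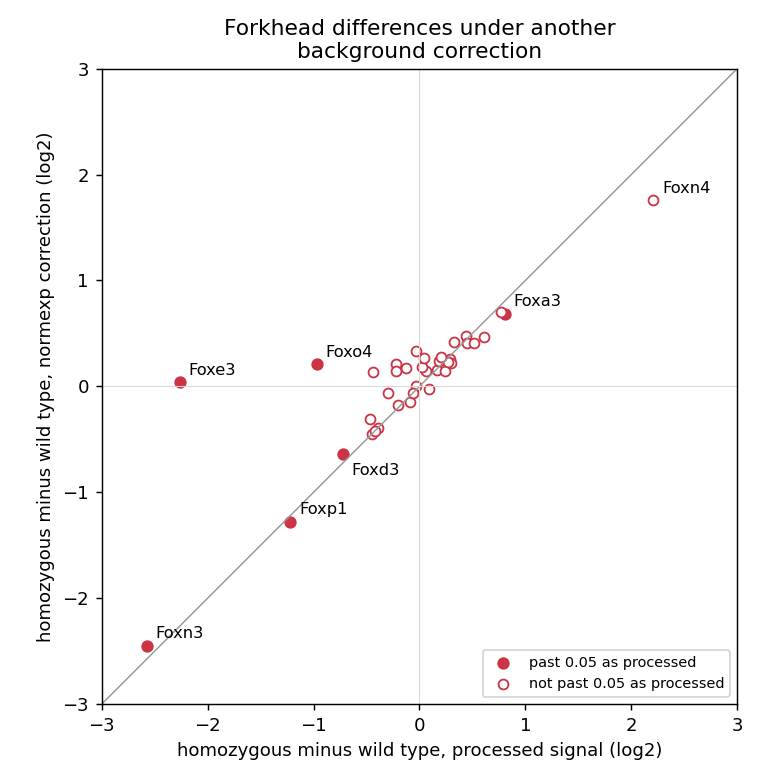
Difference of homozygous from wild-type embryos (log2) for tested forkhead genes with the processed signal (x axis) and with normexp background correction (y axis), both scaled to the 75th percentile. Foxn3 lies near the diagonal at -2.58 and -2.45, whereas Foxe3 lies at -2.26 and 0.04.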

How the data were processed

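The scanner files deposited by the authors hold, per the file headers, 1-colour intensity values that were background-subtracted within each array but not normalized between arrays. They were made with Agilent Feature Extraction 11.0.1.1 per the submitters' processing notes. A further deposited table gives log2 values, median 6.73 in every array. These correlated at 0.995 to 0.999 with the intensities of their own array and their normalization method is not given in the sources used here. Each array held 43020 gene spots and 1377 control spots, with 0 saturated. Spots marked as outliers and control spots were left out, and spots of a probe averaged, giving 39429 probes. Levels are log2 of the processed intensity minus the 75th percentile of the same array. Probe accessions were matched to a RefSeq gene table (GRCm38.p6), used for names and neighbours only because the array was annotated to another build, which named 27234 probes (69.1%) with 20659 symbols.

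A probe was kept if it stood well above background in both embryos of some genotype (29905), and the brightest kept probe represented a gene (24571 genes, of which 7593 have no symbol). Genotype was fitted over all 6 arrays together in limma 3.58.1 under R 4.3.3 (3 residual and 3.32 prior degrees of freedom), with Benjamini-Hochberg adjustment over all genes within each comparison. Genes were called at an adjusted p below 0.05. A fit over every kept probe gave the values per probe. Other settings were normexp background correction (offset 50, on median spot signals, since no mean signals were used), quantile normalization, the deposited table, other filters, other probes, a replicate block and leaving out each embryo. The number of arrays limits the precision. The fit was tested on simulated data.

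Members were given with values for called members, groups by role for the others, all probes where at least 1 was called, and at most 3 genes per list, those of lowest p. Members singled out beyond this, such as Foxn4, Foxo6 and Foxj1, were chosen after their values were seen. Members and lists were chosen with earlier results of these data known. A further result is not reported here.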

Additional observations from a re-analysis of the deposited data

How the results depend on the processing

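With 2 embryos per genotype and the homozygous arrays in a scan of their own, dim probes and small differences are the least certain. Foxn3 kept its call in every setting run, and Foxp1 in all but its second probe. Against wild type, where 6 forkhead genes (15%) and 29% of all genes were called, normexp gave 10 (25%, against 36.3% of all genes; median difference 0.18). The second brightest probe gave 1 of 8 genes (12.5%, against 21.9%; median -0.28), and leaving out 1 embryo gave 3 to 11 (7.5% to 27.5%, against 7.8% to 36.1%). Over every kept probe normexp gave 14 calls in place of 7, which were 14%, against 27.8% of all kept probes. The share of all kept probes under normexp is not given here. Against heterozygous embryos, where 4 were called, normexp gave 13 (32.5%, against 46.7%; median 0.24), the second brightest probe 1 (12.5%, against 17.3%; median -0.38), and leaving out 1 embryo 3 to 9 (7.5% to 22.5%, against 6.91% to 31.9%). Over every kept probe normexp gave 19 in place of 5, which were 10%, against 22.8% of all kept probes. Heterozygous against wild type gave 0 calls in every setting run.

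Among values called in the reported or the other setting, these changed sign. Under normexp, Foxe3 was 0.042, Foxo3 0.33 and Foxo4 0.21 against wild type, and Foxe3 was 0.19, Foxf1 0.36 and Foxo4 0.42 against heterozygous embryos. On the second brightest probe, Foxp1 was 0.0088 and Foxp2 -1.09 against wild type, and 0.090 and -0.97 against heterozygous embryos. The cause was not tested. Values called in neither setting also changed sign and are not listed.

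With the replicate number as a block, 5 genes were called against wild type (12.5%, against 28.1% of all genes) and 5 against heterozygous embryos (12.5%, against 22.9%). Between heterozygous and wild type 0 were called (0%, against 0%). Deviations of same-numbered embryos correlated at 0.00656 (wild type and heterozygous), -0.160 (wild type and homozygous) and 0.254 (heterozygous and homozygous). These were not all positive, so the numbers were not taken as pairs. Whether same-numbered embryos shared a litter or experiment is not given in the labels.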
